A study of Danio rerio with 6 samples.

Results

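Proteins are marked for breakdown or for a change of function by the small protein ubiquitin, which is attached in 3 steps. An E1 enzyme activates ubiquitin, an E2 enzyme carries it, and an E3 ligase chooses the protein that receives it; deubiquitinating proteases take it off again. In heart and skeletal muscle of mammals, the ligases atrogin-1 (Fbxo32) and MuRF1 (Trim63) are best known for the breakdown of muscle proteins during atrophy. Of the 25089 genes in the deposited table, 158 carry a symbol of this machinery: uba (E1), ube2 (E2), the F-box genes fbxo, fbxl and fbxw, the cullins and trim63 (ligase), and usp (protease). They fall into 5 E1, 39 E2, 68 ligase and 45 protease rows, and 1 row belongs to none of these classes. Families outside these names, such as other RING and HECT ligases, are counted separately further on.

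RNA was sequenced from 6 libraries of cells labelled as cardiomyocytes, sorted by fluorescence from the ventricle apex of zebrafish of the strain Gata4:GFP. This strain name stands for a reporter of the heart transcription factor gene gata4, and the labels do not describe the gate. In the first group, 3 libraries came from uninjured hearts, and in the second, 3 came from hearts that were regenerating 5 days after the apex had been resected; injured tissue was cleared away before dissociation. Both groups carry the reporter, and the labels give neither the age of the fish nor whether each library came from separate animals, and their batch field repeats the group, so that batch and group cannot be told apart. The p-values thus reflect how far these particular libraries vary, in part perhaps for technical reasons. Values are FPKM, fragments scaled to transcript length and library total, divided by a factor that puts the median of the shared genes at the same level in all libraries (scaled FPKM).

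Across libraries, deposited FPKM summed to between 422675 and 535337, and between 11294 and 13723 genes exceeded 1 FPKM. The table holds no counts per library, so depth is unknown and the errors given are those between libraries. Mitochondrially encoded transcripts took 21.8% to 41.9% of summed FPKM in uninjured libraries and 10.3% to 18.8% in regenerating ones. Over all tested genes the log2 change had a median of 0.51 without scaling and 0.05 with it, so changes are given relative to the median gene. Of 15 cardiomyocyte markers tested, 4 fell and none rose, with a summed level of 7890 to 16336 scaled FPKM in uninjured and 5723 to 10865 in regenerating libraries. Of the 16 cardiomyocyte markers listed, 1 did not exceed 1 FPKM in any library. Markers of other cells were present too: 9 of 12 epicardial, 11 of 15 fibroblast and 6 of 18 endothelial and endocardial markers rose. The epicardial and fibroblast lists share a gene that rose. Of macrophage and leukocyte markers 4 of 16 rose, and of erythrocyte markers 4 of 10, with no fall in either list. Of these 16 and 10, 1 and 3 passed the filter on low values only through the regenerating libraries. Among all genes tested, 7.5% rose and 3.95% fell. In such sorted bulk samples, fewer cells of a type and less RNA per cell cannot be told apart. The gene gata4 measured 16.3 ± 8.73 scaled FPKM in uninjured and 9.52 ± 2.04 in regenerating cells (n = 3, SD; log2 change -0.61, SE 0.36, limma adjusted p = 0.306).

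Most tested genes of the ubiquitin machinery lay within 1.5-fold of no change on the log2(scaled FPKM + 1) scale, and 7 were called. The deubiquitinase genes usp2a, usp2b and usp13, the atrogin-1 gene fbxo32 and the E2 gene ube2d4 fell in regenerating cells. The E2 genes ube2c and ube2t, both known from dividing cells, rose. Each exceeded 1 FPKM in only 1 uninjured library and passed the filter on low values through the regenerating ones. The calls of ube2c, usp2a and usp2b also held without scaling, with no filter on low values and without any single library. Those of ube2t, ube2d4, fbxo32 and usp13 were each lost with no filter and without some single libraries. Of the 158 members, 128 passed the filter on low values (above 1 FPKM in at least 3 libraries). Of these, 2 rose, 5 fell and 121 did not pass (limma on log2(scaled FPKM + 1), adjusted p below 0.05 over all 13319 genes tested). Among all genes tested, 7.5% rose and 3.95% fell, so that the members' share of falls, 3.91%, was near the background and their share of rises, 1.56%, was below it. The members' median log2 change was 0.02, beside 0.05 for all genes. Within 1.5-fold of no change on the log2(scaled FPKM + 1) scale lay 105 of the 128 members (82.0%) and 65.5% of all genes tested. This scale shrinks changes of low genes. For example, uba7, with means of 1.68 and 3.21 scaled FPKM, is counted as within it (log2 change 0.56). The standard error of a member's log2 change had a median of 0.28, so small changes were not detectable here.

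**Figure D1:**
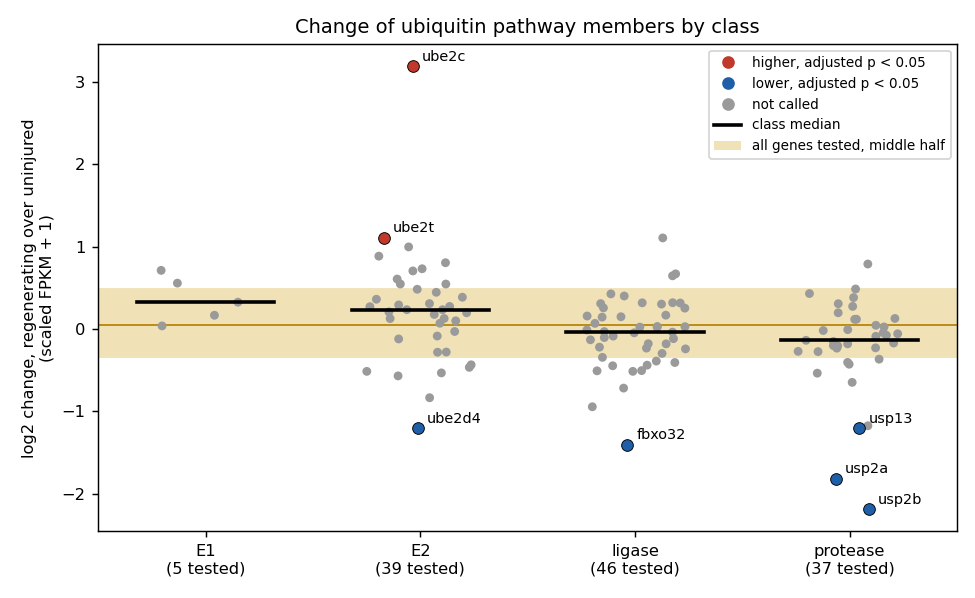
Log2 change on the log2(scaled FPKM + 1) scale (vertical axis) of the 127 tested E1, E2, ligase and protease genes by class (horizontal axis), with called genes in colour and named, the class median as a black bar and the middle quartiles of all tested genes as a shaded band. The called genes usp2b (-2.19), usp2a (-1.82), fbxo32 (-1.41), ube2d4 (-1.21), usp13 (-1.20), ube2t (1.11) and ube2c (3.19) lie at the outer ends of their classes.

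Among the E1, E2, ligase and protease rows the most abundant were ube2v2 and ube2d2 of the E2 class and the protease gene usp2a. Their means over 6 libraries were 75.6, 57.3 and 71.4 scaled FPKM. The most abundant ligase genes were lower, at 15.6 for fbxo11a (ENSDARG00000102294) and 12.4 for cul2. A second row named fbxo11a (ENSDARG00000061631, which a table of gene names lists as fbxo11b) was at 9.70.

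**Figure D2:**
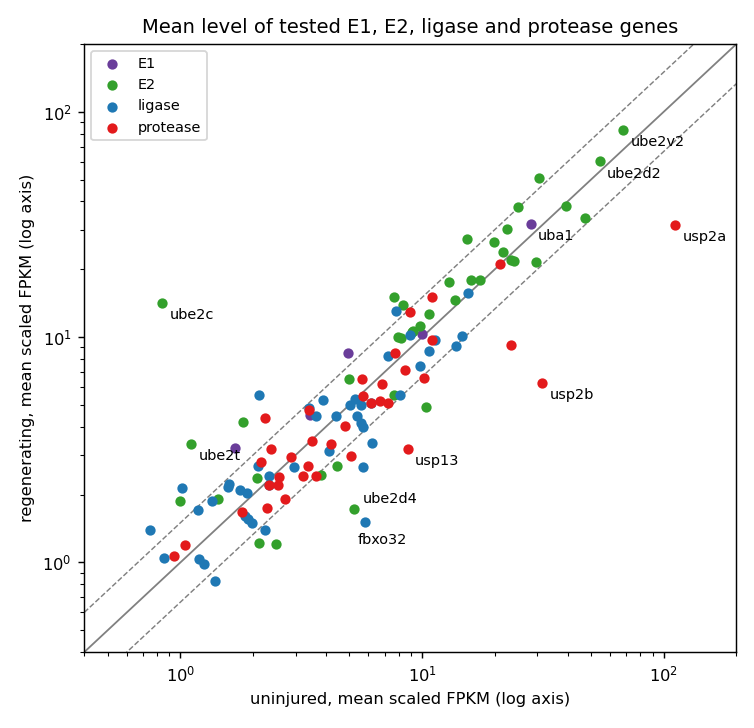
Mean scaled FPKM of the 127 tested E1, E2, ligase and protease genes in 3 uninjured libraries (horizontal, log axis) and 3 regenerating libraries (vertical, log axis), coloured by class, with the line of equality and dashed lines at 1.5-fold. Most points lie between the dashed lines; usp2a and usp2b stand out below at high levels and ube2c above.

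All 5 E1 genes were tested and none passed in either direction, beside 11.4% of all genes called. With an unadjusted p below 0.05, 12 members in all were higher and 7 lower, beside 16.6% and 10.1% of all genes. The gene uba1, the main activator of ubiquitin, was the most abundant, at 26.9, 26.9 and 30.7 scaled FPKM in uninjured and 31.9, 28.5 and 34.9 in regenerating replicates 1 to 3. Its groups overlapped (log2 change 0.17, SE 0.22, limma adjusted p = 0.675). The other E1 members activate ubiquitin-like proteins. A further E1 row, UBA6, was kept out of the members by its capital symbol and is counted further on. The gene uba3, whose product activates NEDD8, the modifier that switches on cullin ligases, measured 10.02 ± 1.503 and 10.3 ± 1.32 scaled FPKM (n = 3, SD; log2 change 0.04, SE 0.25, limma adjusted p = 0.941). The SUMO activator gene uba2 was at 3.44 ± 0.674 and 4.53 ± 0.415 (log2 change 0.32, SE 0.26, limma adjusted p = 0.470). These levels overlapped between the groups. The gene uba7, an activator of the interferon-induced modifier ISG15 in mammals, was at 1.68, 1.61 and 1.75 in uninjured and 4.27, 4.06 and 1.29 in regenerating replicates 1 to 3. Regenerating replicates 1 and 2 were high and replicate 3 was below all uninjured libraries (log2 change 0.56, SE 0.35, limma adjusted p = 0.344).

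All 39 E2 rows passed the filter, and 2 rose (5.13%), 1 fell (2.56%) and 36 did not pass. Beside these shares stand 7.5% and 3.95% of all genes, and so few calls do not set the class apart. The median log2 change of the E2 rows was 0.23, with 27 changes above 0 and 12 below. Over all genes tested the median was 0.05, with 7101 changes above 0 and 6218 below. The largest change of any member was that of ube2c (ENSDARG00000035770), which works with the anaphase-promoting complex to mark mitotic proteins. Its scaled FPKM was 0.200, 0.220 and 2.11 in uninjured and 13.9, 15.5 and 13.2 in regenerating replicates 1 to 3. Uninjured replicate 3 was higher than the other uninjured libraries, and the groups did not overlap (log2 change 3.19, SE 0.38, limma adjusted p = 0.00152). In uninjured replicates 1 and 2 the value was within 2 times the floor that genes with no counts show, and the gene passed the filter through the regenerating libraries, so the size of its change is uncertain. The authors' deposited table gives ube2c a log2 fold change of 2.18 with an adjusted p of 0.0954. A second row named ube2c (ENSDARG00000101618) is listed as DNTTIP1 in a table of gene names and is counted among the 39 E2 rows by its symbol only. This second row measured 7.64 ± 6.69 and 5.54 ± 3.2004 scaled FPKM (n = 3, SD; log2 change -0.28, SE 0.57, and 0.20 without scaling).

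The E2 gene ube2t, which serves the Fanconi anaemia pathway of DNA crosslink repair, was at 1.07, 0.390 and 1.87 scaled FPKM in uninjured and 3.23, 3.02 and 3.84 in regenerating replicates 1 to 3. Its groups did not overlap, and it lay at the threshold (log2 change 1.11, SE 0.31, limma adjusted p = 0.0498). In 1 uninjured library the value of ube2t was within 2 times the floor that genes with no counts show. Only 1 uninjured library exceeded 1 FPKM, so ube2t too passed the filter through the regenerating libraries, and the size of its change is uncertain. The call of ube2t was lost without any one library other than uninjured replicate 3, and with upper-quartile scaling, mitochondrial rows out of the total, pseudocount 0.1, no filter or a mean above 1 FPKM (limma adjusted p from 0.0532 to 0.131). In the authors' deposited table its adjusted p is 0.285. The related gene ube2s, which extends the chains that ube2c starts, was chosen after its values were seen. It measured 0.708, 1.59 and 0.702 in uninjured and 2.39, 1.64 and 1.61 scaled FPKM in regenerating replicates 1 to 3, with groups that did not overlap and no call (log2 change 0.55, SE 0.27, limma adjusted p = 0.234). Of 24 proliferation markers tested, 18 rose in the same libraries, but 13 of the 24 were tested only because their regenerating values are high, so that this count is no support. Their summed level was 28.0 to 50.8 scaled FPKM in uninjured and 159 to 168 in regenerating libraries. Of the 26 listed, 1 did not exceed 1 FPKM in any library. The part of these markers in the rise of ube2c and ube2t was not tested.

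The ube2d genes encode E2 enzymes that work with many ligases, and 1 of the 6 fell, beside 3.95% of all genes. The gene ube2d4 was at 5.05, 5.64 and 4.98 scaled FPKM in uninjured and 1.92, 1.12 and 2.15 in regenerating replicates 1 to 3. Every regenerating value was below every uninjured one (log2 change -1.21, SE 0.28, limma adjusted p = 0.0226; authors' deposited table, log2 fold change -1.62, adjusted p = 0.00865). Without regenerating replicate 1, 2 or 3 or with no filter (limma adjusted p = 0.0539), ube2d4 did not pass, and without scaling its change was -0.75 (limma adjusted p = 0.111). It was the least abundant of the family in regenerating cells. The most abundant, ube2d2, measured 73.7, 36.7 and 53.0 scaled FPKM in uninjured and 56.9, 63.8 and 59.9 in regenerating replicates 1 to 3. Its levels overlapped (log2 change 0.20, SE 0.28, limma adjusted p = 0.694). The member ube2d1a, chosen after its values were seen, was at 6.88, 4.20 and 11.9 and at 14.6, 15.5 and 15.2. These groups did not overlap, and the change gave no call in the scaled fit (log2 change 0.996, SE 0.33, limma adjusted p = 0.0856). The 4 members ube2d1b, ube2d2, ube2d2l and ube2d3 ranged from 0.07 to 0.39 in log2 change. Such close paralogs, like the pairs ending in a and b, may share reads, which could not be checked here.

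E2 genes of chain building and of other modifiers, all but ube2v2 chosen after their values were seen, gave no call in the scaled fit. The gene ube2v2, a catalytically inactive partner of ube2n in making lysine-63 chains, was at 64.3, 73.5 and 66.0 scaled FPKM in uninjured and 81.7, 84.3 and 83.8 in regenerating replicates 1 to 3. All regenerating values were higher, by a small amount that did not pass (log2 change 0.29, SE 0.21, limma adjusted p = 0.410). Its partner ube2na measured 13.1, 18.2 and 14.7 and then 25.6, 26.8 and 29.5, again with no overlap (log2 change 0.80, SE 0.24, limma adjusted p = 0.0551). The copy ube2nb was at 13.7 ± 2.83 and 14.6 ± 0.873 scaled FPKM (n = 3, SD; log2 change 0.10, SE 0.25). Of the SUMO E2 genes, ube2ia measured 30.3 ± 9.25 and 51.0 ± 14.0 scaled FPKM (log2 change 0.73, SE 0.30, limma adjusted p = 0.158), and ube2ib 29.7 ± 18.6 and 21.6 ± 3.12 (log2 change -0.28, SE 0.39, limma adjusted p = 0.685, and 0.30 without scaling). In both SUMO genes the groups overlapped. The E2 of ER-associated breakdown encoded by ube2j2 was at 1.42, 2.10 and 1.94 and at 3.25, 4.70 and 4.71 scaled FPKM, with groups apart and no call (log2 change 0.88, SE 0.27, limma adjusted p = 0.0671). Without scaling, 9 E2 genes were higher and none lower, beside 23.7% and 1.52% of all genes: ube2c, ube2t, ube2na, ube2j2, ube2d1a, ube2ia, ube2l3a, ube2l3b and ube2v1.

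Ligase genes as a class stayed near the median gene. Of 68 ligase rows, 46 passed the filter. Of these, fbxo32 fell (2.17%, beside 3.95% of all genes), none rose (beside 7.5%) and 45 did not pass. With p below 0.05 before adjustment, 3 ligase genes were higher and 2 lower in limma, beside 16.6% and 10.1% of all genes. The class median was -0.04, with changes from -1.41 to 1.11. The F-box protein of fbxo32, atrogin-1, is the substrate receptor of a muscle ligase. Its transcript was at 7.29, 6.70 and 3.44 scaled FPKM in uninjured and 1.35, 1.07 and 2.11 in regenerating replicates 1 to 3. The groups did not overlap, with uninjured replicate 3 lowest and regenerating replicate 3 highest within their groups (log2 change -1.41, SE 0.33, limma adjusted p = 0.0243; authors' deposited table, log2 fold change -2.06, adjusted p = 0.00249). The call was lost without uninjured replicate 1 or 2 and without regenerating replicate 1 or 2 and with no filter (limma adjusted p = 0.0750), and without scaling the change was -0.97 (limma adjusted p = 0.0746).

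The MuRF1 genes did not pass in either direction. The gene trim63a was at 10.8, 9.73 and 8.95 scaled FPKM in uninjured and 5.14, 4.11 and 13.04 in regenerating replicates 1 to 3. Regenerating replicate 3 was above all uninjured libraries (log2 change -0.51, SE 0.37, limma adjusted p = 0.420), and without scaling the change was 0.04. Its copy trim63b measured 7.81, 4.40 and 4.90 and then 0.991, 2.92 and 4.03 scaled FPKM. Here every regenerating value was lower, with replicate 3 again the highest of its group (log2 change -0.95, SE 0.38, limma adjusted p = 0.149).

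**Figure D3:**
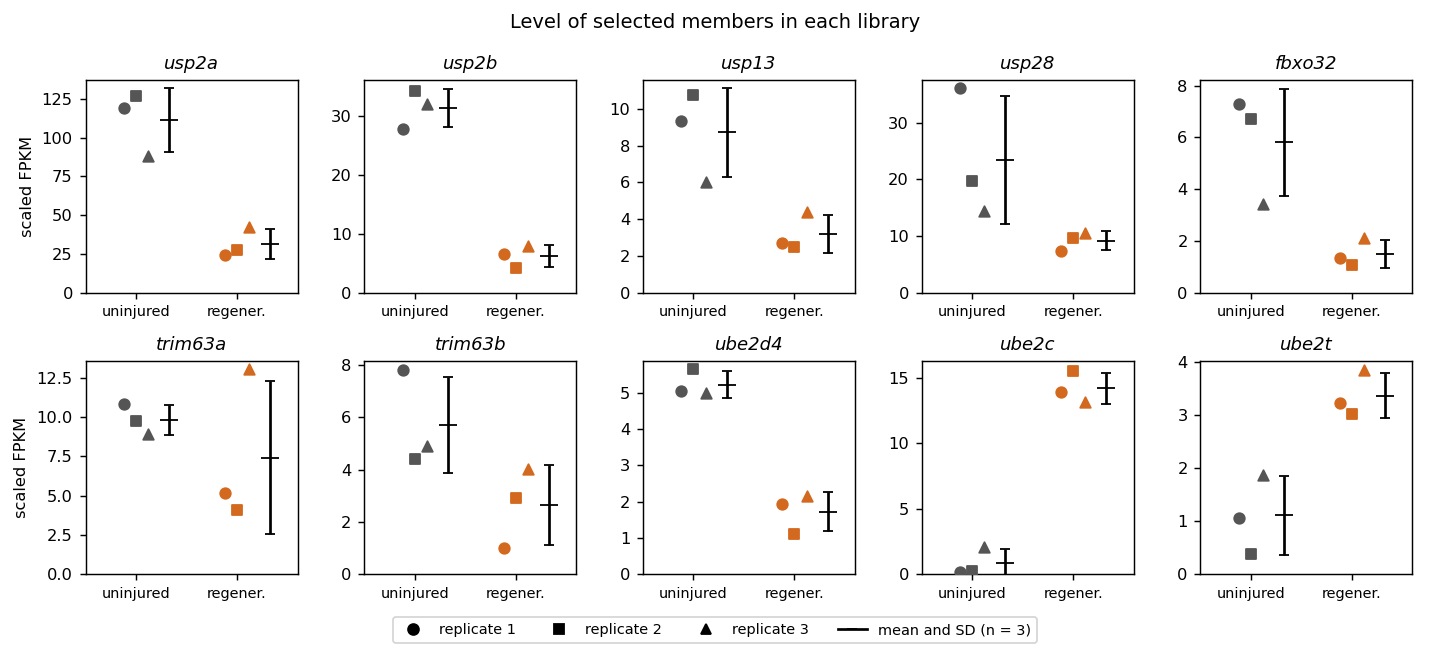
Scaled FPKM (vertical axis, from 0) of 10 members in each uninjured and regenerating library, with symbols for replicates 1 to 3 and bars for the mean and SD of 3 libraries. Groups are apart in every panel but that of trim63a, where regenerating replicate 3 (13.04) is the highest value; the lower bar of ube2c in uninjured libraries is cut at 0.

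Cardiomyocyte markers were set beside these genes, and the part of the markers in these changes was not tested. Their summed level was 16336, 14152 and 7890 scaled FPKM in uninjured replicates 1 to 3 and 5919, 5723 and 10865 in regenerating replicates 1 to 3, so that uninjured replicate 3 and regenerating replicate 3 crossed. The most abundant of them, the myosin light chain gene myl7, measured -0.83 on the log2 scale, without a call (SE 0.41, limma adjusted p = 0.226). The tropomyosin gene tpm4a measured -0.48 (SE 0.33, and 0.13 without scaling). Of the 15 markers tested, 13 changes were below 0 and 2 above. The 4 that fell, named after their values were seen, were ttn.2 (-2.34), ttn.1 (-2.06), ryr2b (-1.86) and mybpc3 (-1.66, not passing without scaling). Abundant markers such as myl7 and tpm4a lead the sum and changed less than these 4. Per 1000 scaled FPKM of all cardiomyocyte markers summed, fbxo32 was at 0.446, 0.474 and 0.436 in uninjured and 0.228, 0.187 and 0.194 in regenerating replicates 1 to 3. On this measure the groups of fbxo32 stayed apart, and the spread within each was narrow. The gene trim63a was at 0.663 to 1.13 in uninjured and 0.718 to 1.1998 in regenerating libraries, and trim63b at 0.311 to 0.621 and 0.167 to 0.510, with overlap in both. Fitted with libraries scaled to the summed markers, fbxo32 measured -0.85 on the log2 scale (SE 0.51, limma adjusted p = 0.248), in a fit whose median gene was shifted by 0.62.

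Cullins form the scaffold of the largest ligase family, and F-box proteins are the substrate receptors of cul1. None of 8 cullin genes tested passed, beside 11.4% of all genes called in either direction. All 8 lay within 1.5-fold on the log2(scaled FPKM + 1) scale, beside 65.5% of all genes. The most abundant by its mean, cul2, was at 13.5, 21.2 and 9.07 scaled FPKM in uninjured and 8.55, 13.5 and 8.38 in regenerating replicates 1 to 3. These overlapped widely (log2 change -0.44, SE 0.33, limma adjusted p = 0.437). The range over the other cullins ran from -0.51 for cul4b, whose groups did not overlap and whose change was 0.02 without scaling, to 0.25 for cul5a, both chosen after their values were seen. Among the F-box genes none of 11 fbxl and none of 5 fbxw genes passed, and fbxo32 was the only call among 20 fbxo genes. With so few genes per family, these counts do not set any family apart from the 11.4% of all genes. The most abundant F-box row, fbxo11a (ENSDARG00000102294), was at 15.5 ± 2.14 and 15.7 ± 0.536 scaled FPKM (n = 3, SD; log2 change 0.03, SE 0.23). The following F-box genes were chosen after their values were seen. The gene fbxl22, whose protein sits at the Z-disc of heart muscle, measured 8.03, 8.83 and 6.49 scaled FPKM in uninjured and 9.91, 14.2 and 15.1 in regenerating replicates 1 to 3. Its values ran against those of fbxo32, with all regenerating libraries higher, and did not pass (log2 change 0.67, SE 0.27, limma adjusted p = 0.141). The gene fbxo25 had the largest positive change of the class, from 3.55, 1.0002 and 1.80 to 4.57, 8.09 and 4.02, also without a call (log2 change 1.11, SE 0.37, limma adjusted p = 0.0889). Without scaling 4 of the 46 ligase genes tested, fbxl22, fbxo25, fbxw2 and fbxw4, were higher and none was lower, beside 23.7% and 1.52% of all genes. The gene fbxo10 exceeded 1 FPKM in all regenerating and no uninjured libraries, so that it passed the filter only through the group where it was high.

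Deubiquitinating proteases held the largest falls. Of 45 usp rows 37 were tested. Of these, usp2a, usp2b and usp13 fell (8.11%, beside 3.95% of all genes). None rose (beside 7.5%), and 34 did not pass. With p below 0.05 before adjustment in limma, 4 usp genes were lower and 1 was higher, beside 10.1% and 16.6% of all genes. The 1 higher, usp6nl, is counted here by its symbol although it encodes no protease. The median log2 change of the usp genes was -0.14, with 25 changes below 0 and 12 above. Over all genes tested the median was 0.05, with 6218 changes below 0 and 7101 above. The proteins of usp2a and usp2b are relatives of mammalian USP2, which is known to stabilise regulators of the cell cycle and of the circadian clock. Levels of usp2a were 119, 127 and 88.3 scaled FPKM in uninjured and 24.3, 27.5 and 42.5 in regenerating replicates 1 to 3. Every uninjured value was above every regenerating one, and replicate 3 was again the extreme of each group towards the other (log2 change -1.82, SE 0.28, limma adjusted p = 0.00425). Its copy usp2b went from 27.9, 34.3 and 32.1 to 6.65, 4.20 and 7.90 (log2 change -2.19, SE 0.27, limma adjusted p = 0.00173). Both genes also passed without scaling (-1.22 and -1.63; limma adjusted p = 0.0306 and 0.00806) and without any one library. The authors' deposited table gives log2 fold changes of -1.93 for usp2a and -2.39 for usp2b, with adjusted p of 2.40e-09 and 4.35e-10.

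The gene usp13 encodes a relative of the unanchored-chain protease of usp5. It was at 9.36, 10.7 and 6.05 scaled FPKM in uninjured and 2.71, 2.501 and 4.40 in regenerating replicates 1 to 3. The groups did not overlap (log2 change -1.20, SE 0.31, limma adjusted p = 0.0340; authors' deposited table, log2 fold change -1.53, adjusted p = 0.000278). Of the leave-out fits, usp13 passed only without uninjured replicate 3. It did not pass with the trimmed mean or with no filter (limma adjusted p = 0.0761 and 0.0858), and without scaling its change was -0.70 (limma adjusted p = 0.183). Just short of the threshold was usp28, chosen after its values were seen, a protease that stabilises MYC in mammalian cells. Its values were 36.1, 19.7 and 14.5 in uninjured and 7.33, 9.74 and 10.5 in regenerating replicates 1 to 3, apart but wide in the uninjured group (log2 change -1.18, SE 0.34, limma adjusted p = 0.0520). The authors' deposited table lists usp28 with a log2 fold change of -1.43 and an adjusted p of 0.000985.

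The usp genes and ube2d4 were also set against the cardiomyocyte markers. Per 1000 scaled FPKM of summed markers, usp2a was at 7.28 to 11.2 in uninjured and 3.91 to 4.80 in regenerating libraries, and usp2b at 1.71 to 4.07 and 0.727 to 1.12. For usp13 the ranges were 0.573 to 0.766 and 0.405 to 0.458. These 3 genes stayed apart between the groups on this measure, which is led by the abundant markers and not by the 4 that fell. The ranges of usp28 overlapped, at 1.39 to 2.21 and 0.970 to 1.70, as did those of ube2d4, at 0.309 to 0.632 and 0.195 to 0.325. In the fit scaled to the markers, only usp2b of the falling members passed (log2 change -1.49, SE 0.53, limma adjusted p = 0.0363), and usp2a did not (-1.07, SE 0.53, limma adjusted p = 0.155). Smooth muscle and pericyte markers also moved, 5 of 11 lower and 2 higher, with a summed level of 639 to 795 in uninjured and 387 to 460 scaled FPKM in regenerating libraries. Of 12 thrombocyte markers 3 were lower and 1 higher, with 10 changes below 0 and 2 above. Their sums were 658 to 1216 and 854 to 1039. The 1 higher, fn1b, is also on the fibroblast list and was named after its values were seen. It held 176, 128 and 103 scaled FPKM of the sum in uninjured and 524, 396 and 740 in regenerating replicates 1 to 3. These sums thus do not show how the other thrombocyte markers moved. All 11 smooth muscle and pericyte and all 12 thrombocyte markers passed the filter on low values. Their part in the falls was not tested.

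The genes usp14 and usp5, chosen after their values were seen, had changes above 0. The gene usp14, whose protein trims chains at the proteasome, was at 9.54, 8.41 and 8.85 scaled FPKM in uninjured and 13.7, 12.5 and 12.5 in regenerating replicates 1 to 3. All regenerating libraries were higher, without a call relative to the median gene (log2 change 0.48, SE 0.23, limma adjusted p = 0.213). The gene usp5, which takes apart free chains, was at 11.04 ± 2.60 and 15.1 ± 2.75 (n = 3, SD; log2 change 0.43, SE 0.27, limma adjusted p = 0.343). The second most abundant usp gene, usp54a, measured 18.9, 27.5 and 16.4 in uninjured and 20.9, 19.3 and 23.3 scaled FPKM in regenerating replicates 1 to 3. Its groups overlapped (log2 change 0.04, SE 0.26, limma adjusted p = 0.932), whereas the authors' deposited table gives it a log2 fold change of 0.78 with an adjusted p of 0.0328. The row usp6nl encodes a GTPase-activating protein of Rab proteins (log2 change 0.79, SE 0.33, limma adjusted p = 0.159).

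Summed over a class, E1 and E2 levels were higher and ligase and protease levels lower in regenerating libraries, relative to the median gene. E2 levels summed to 587 to 622 scaled FPKM in uninjured and 676 to 717 in regenerating libraries, and E1 levels to 45.8 to 50.9 and 53.7 to 62.0. Protease levels summed to 305 to 385 and 207 to 246, and ligase levels to 217 to 238 and 205 to 213. None of these ranges overlapped. With usp2a and usp2b left out, the protease sums were 185 to 225 and 176 to 196 and did overlap. Without scaling, the ligase sums turned (157 to 234 and then 239 to 279 FPKM) and the protease sums overlapped (222 to 385 and 232 to 323). Such sums are led by the abundant genes and are given without a test.

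**Figure D4:**
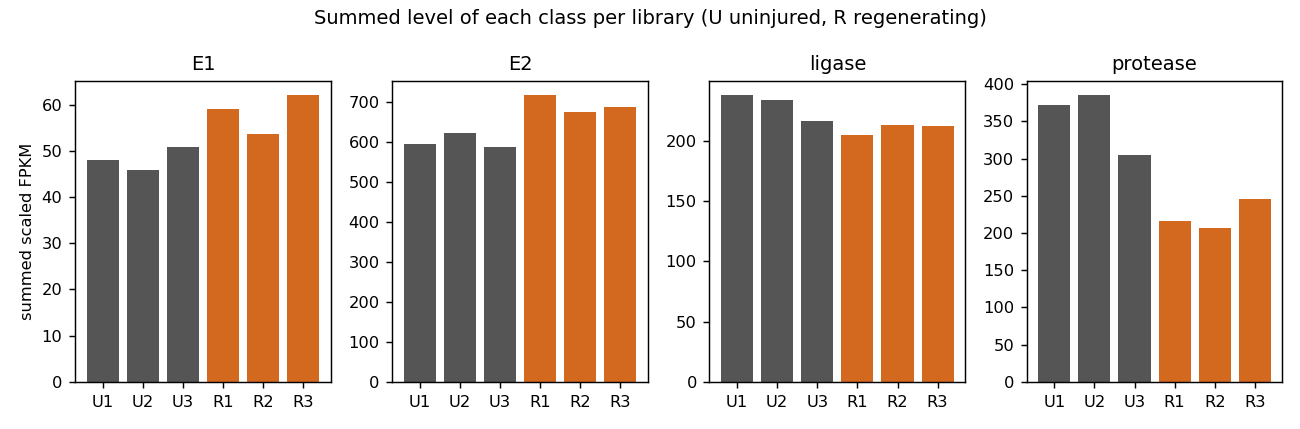
Summed scaled FPKM (vertical axes, each from 0) of E1, E2, ligase and protease genes in uninjured libraries U1 to U3 and regenerating libraries R1 to R3, 1 bar per library. The E2 bars are at most 622 in uninjured and at least 676 in regenerating libraries, and the protease bars at least 305 and at most 246.

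Of 128 members 17 lay wholly higher and 18 wholly lower in regenerating libraries, beside 19.1% and 13.7% of all genes tested. The 17 included 9 E2, 3 ligase and 4 protease genes, and the 18 comprised 3 E2, 6 ligase and 9 protease genes. In the authors' deposited table, 1 member is higher (usp54a) and 6 are lower (ube2d4, fbxo32, usp2a, usp2b, usp13 and usp28) past an adjusted p of 0.05, beside 4.84% and 4.62% of its genes with counts. All 5 falls of the limma fit are among those 6, and neither ube2c nor ube2t is among the higher. The 30 members that did not pass the filter were 22 ligase and 8 protease rows with group means of at most 1.18 scaled FPKM, and 6 of them have a mean normalised count of 0 in the authors' deposited table. A further 7 rows carry capital symbols of the same families (FBXO46, FBXW7, UBA6, UBE2M, UBE2O, USP31 and USP34) and were not members; all 7 were tested and none passed.

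Other parts of the pathway were followed in 6 lists, whose shares of rises, from 0% to 12.5%, stand beside 7.5% of all genes, and whose shares of falls, from 0% to 4%, stand beside 3.95%. Of 16 genes of ubiquitin and ubiquitin-like proteins, 2 rose and none fell: the SUMO gene sumo2b went from 24.5 ± 3.68 to 52.6 ± 1.31 scaled FPKM (n = 3, SD; log2 change 1.08, SE 0.22, limma adjusted p = 0.0157) and nedd8 from 21.3 ± 6.12 to 45.9 ± 5.33 (log2 change 1.103, SE 0.26, limma adjusted p = 0.0260). The SUMO gene sumo2a measured 1.93 ± 0.174 and 1.38 ± 0.257 (log2 change -0.30, SE 0.24). Of 23 cofactors of cullin ligases 2 rose (8.70%, near the background) and none fell. These were rbx1, the RING subunit that binds the E2, from 29.8 ± 6.95 to 58.0 ± 8.42 (log2 change 0.95, SE 0.25, limma adjusted p = 0.0386), and nae1, the partner of uba3 in activating NEDD8, from 2.55 ± 1.59 to 7.31 ± 1.57 (log2 change 1.31, SE 0.36, limma adjusted p = 0.0452). On the other side was dcun1d4 (-0.62, SE 0.26, limma adjusted p = 0.170). The NEDD8 E2 genes, named after their values were seen, did not pass, at -0.84 for ube2f (SE 0.40, limma adjusted p = 0.216) and 0.95 for UBE2M (SE 0.33, limma adjusted p = 0.101). The call of sumo2b was lost without regenerating replicate 1, 2 or 3 (limma adjusted p up to 0.0822). Those of nedd8, rbx1 and nae1 were lost without any one library other than uninjured replicate 1 (limma adjusted p up to 0.111, 0.171 and 0.180).

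Of 13 genes of the anaphase-promoting complex tested, cdc20, its mitotic activator and a partner of ube2c, rose from 0.817 ± 0.119 to 3.89 ± 0.880 scaled FPKM (n = 3, SD; log2 change 1.41, SE 0.26, limma adjusted p = 0.0102) and none fell. It exceeded 1 FPKM in no uninjured library and was tested only through the regenerating ones, where it is high. Its subunit genes anapc16 (0.92, SE 0.29, limma adjusted p = 0.0700) and anapc7 (-0.58, SE 0.31) did not pass. Among 25 HECT and RBR ligase genes, wwp2 fell from 89.6 ± 32.5 to 21.3 ± 2.23 (log2 change -1.95, SE 0.31, limma adjusted p = 0.00514), none rose, and ube3c measured 0.98 (SE 0.31, limma adjusted p = 0.0683). Of 39 genes tested from a list of other RING and muscle ligases, 1 rose and 1 fell. The faller rnf207b, a RING gene of heart muscle, went from 14.3 ± 3.90 to 3.93 ± 1.37 scaled FPKM (log2 change -1.64, SE 0.30, limma adjusted p = 0.01003, lost without regenerating replicate 1 or 2 at 0.0573 and 0.0509). The riser birc5a encodes the mitotic protein survivin and is counted here by its listing, although it is no RING or muscle ligase. It went from 0.129 ± 0.00877 to 2.42 ± 0.859 scaled FPKM (log2 change 1.56, SE 0.26, limma adjusted p = 0.00600). Since birc5a was at the floor in all 3 uninjured libraries and passed the filter only through the regenerating ones, the size of its change is uncertain.

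In a list of deubiquitinases of other families and of enzymes that remove SUMO, 3 of 37 genes tested rose (8.11%, near the background). None fell. Because the list also holds the SUMO enzymes and the inactive psmd7, its counts are not those of deubiquitinases alone. Of their changes 16 were above 0 and 21 below, beside 7101 and 6218 over all genes tested. The gene uchl3, a small ubiquitin hydrolase, was at 8.44, 7.38 and 4.90 scaled FPKM in uninjured and 20.6, 24.8 and 24.6 in regenerating replicates 1 to 3 (log2 change 1.65, SE 0.26, limma adjusted p = 0.00549). The proteasome's own deubiquitinase gene psmd14 was at 9.27, 9.01 and 9.03 and at 31.1, 21.0 and 25.2 (log2 change 1.39, SE 0.24, limma adjusted p = 0.00803). In both genes the groups were far apart. Its inactive partner psmd7, named after its value was seen, went from 11.7 ± 0.186 to 23.0 ± 3.69 (log2 change 0.91, SE 0.23, limma adjusted p = 0.0354), while cyldb, which removes lysine-63 chains, measured 4.32 ± 1.77 and 1.35 ± 0.941 (log2 change -1.19, SE 0.37, limma adjusted p = 0.0691). The call of psmd14 was lost without regenerating replicate 1 (limma adjusted p = 0.0551), and that of psmd7 without any one library other than uninjured replicate 1 (up to 0.111). Over the 6 lists the median log2 change ran from -0.17 for this list to 0.47 for the list of ubiquitin and ubiquitin-like proteins.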

How the data were processed

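Paired-end RNA-seq was made from 3 uninjured and 3 regenerating libraries; groups and replicate numbers are those of the sample titles. The submitters' processing notes list the genome build GRCz10, the counter RSEM 1.3.0, the aligner STAR 2.5.3a, R 3.3.3 and DESeq2, with no settings. The authors deposited log2 values of FPKM, per the file headers; the values lie on a 0.01 grid with a minimum of 0.1 after undoing the log2, so 0.1 was subtracted. The deposited table also gives the authors' log2 fold change, p-value, adjusted p-value and mean normalised count (a signal averaged over libraries), per the file headers. A count test could not be run.

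FPKM was divided by median-ratio factors over 8924 genes above 1 FPKM in all libraries. The 13319 genes above 1 FPKM in at least 3 libraries were fitted as log2(scaled FPKM + 1) with limma 3.58.1 in R 4.3.3 (group as only term, intensity trend, two-sided, Benjamini-Hochberg over all genes, threshold 0.05) after a test on simulated data. Fold changes on this scale understate low genes. Class, pathway and marker lists were set by symbol. Members and lists were chosen with earlier results of these data known. Of 20 symbols turned into dates, 19 were restored by identifier, and 155 of 158 member identifiers were in the name table. Genes were named by rule: E1 genes, trim63 and fbxo32, up to 6 calls per direction and class, the 2 most abundant per class, their a or b copies, and up to 3 per pathway list. Of the markers only myl7, tpm4a, gata4, the 4 cardiomyocyte markers that fell and fn1b are given singly. Others are said to be chosen afterwards. Alternatives were other scalings, pseudocount 0.1, other filters, no trend, each library left out and the replicate number as a block. Some named items are not reported here. No coordinates or sequences were used here.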

Additional observations from a re-analysis of the deposited data

How the results depend on the processing

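Against 2 members higher and 5 lower, the counts were 16 and 2 without scaling, 1 and 6 with upper-quartile scaling, 6 and 4 with a trimmed mean, 1 and 5 with mitochondrial rows out of the total, 1 and 5 with pseudocount 0.1, 1 and 2 with no filter, 1 and 5 with a mean above 1 FPKM, and 2 and 5 with no trend. Leaving out each library gave 1 to 3 higher and 2 to 6 lower. Scaling to the cardiomyocyte markers, chosen after seeing the data, gave 7 and 1. The median gene moved to 0.51 without scaling, 0.21 with the trimmed mean and 0.62 with the marker scaling. In all planned settings ube2c rose and usp2a and usp2b fell. The cause of the other changes was not tested.

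By class, without scaling 9 E2, 4 ligase and 2 protease genes were higher and 0 E2 and 0 ligase genes lower. Of all genes tested, 23.7% were then higher and 1.52% lower, beside 12.5% and 1.56% of the members. Higher E2 genes numbered 5 with the trimmed mean, 6 with the marker scaling and 1 with upper-quartile scaling, mitochondrial rows out, pseudocount 0.1, no filter or a mean above 1 FPKM. The trimmed mean and the marker scaling each gave 1 higher ligase gene. With no filter and with the marker scaling, 0 E2 and 0 ligase genes were lower, and the marker scaling left 1 lower protease gene. Over the leave-outs, E2 genes ranged from 1 to 3 higher and 0 to 1 lower, ligase genes from 0 to 1 in each direction, and lower protease genes from 2 to 4.

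These log2 changes turned sign, none of them a call. Without scaling and with the marker scaling, they became 0.039 and 0.16 for trim63a, 0.12 and 0.28 for cul2, 0.073 and 0.18 for sumo2a, 0.13 and 0.29 for tpm4a, 0.20 and 0.38 for the ube2c row ENSDARG00000101618, 0.023 and 0.15 for cul4b, 0.30 and 0.45 for ube2ib and 0.26 and 0.41 for the fbxo11a row ENSDARG00000061631; the marker scaling also gave 0.032 for dcun1d4 and 0.090 for gata4. With upper-quartile scaling and mitochondrial rows out, uba3 became -0.011 and -0.0083, fbxo11a (ENSDARG00000102294) -0.022 and -0.020 and usp54a -0.0057 and -0.0039. The leave-outs ranged from -0.068 to 0.16 for uba3, from -0.071 to 0.11 for fbxo11a, from -0.060 to 0.45 for ube2d2, from -0.11 to 0.24 for usp54a, from -0.75 to 0.31 for the ube2c row ENSDARG00000101618, from -0.15 to 0.25 for ube2d1b, from -0.073 to 0.21 for ube2nb and from -0.67 to 0.17 for ube2ib. Beside the leave-outs, the calls of rbx1 and psmd7 were lost with mitochondrial rows out, no filter and the block, that of rbx1 also with no trend, that of nedd8 with no filter, that of nae1 with upper-quartile scaling, mitochondrial rows out, pseudocount 0.1 and no filter, and those of wwp2 and rnf207b with the marker scaling.

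Same-numbered libraries did not deviate together (correlations of -0.01, -0.005 and -0.06). With the replicate number as a block, 2 members were higher and 4 lower, usp13 being lost (-1.20, limma adjusted p = 0.0587). Counts per library are not known, so the depth behind low genes such as ube2c and ube2t is unknown.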
